A study of Mus musculus with 12 samples.

Results

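The cytosolic ribosomal protein genes are the genes for the protein subunits of the ribosome that translates cytoplasmic mRNA, here measured in mouse prefrontal cortex after viral vectors meant to raise or lower Ttr. Transthyretin, the product of Ttr, is a carrier of thyroid hormone and of retinol-binding protein. They were taken by symbol: Rpl or Rps followed by a number, with a closing a, x, y or l allowed and a number after it, together with Rplp0, Rplp1, Rplp2 and Rpsa, leaving out symbols marked -ps and the Rps6k kinases. Of 89 genes with such a symbol, 87 had at least 10 counts over the 12 libraries, 52 of the large subunit (Rpl) and 35 of the small subunit (Rps), out of 55401 gene identifiers in the table. The other symbols were Rpl10l with 0 counts and Rps12l1 with 1 count. The annotation lists 82 of the 87 as protein-coding and the other 5 (Rpl6l, Rpl32l, Rps3a2, Rps3a3 and Rps4l) as processed pseudogenes, and they lie on 19 chromosomes. Of the 87, 85 passed the expression filter and were tested (50 large, 35 small), while Rpl3l and Rpl39l did not.

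The samples came from the prefrontal cortex of C57BL/6J males. The mice were 14 weeks old, were kept on a diet with 50 mg/kg of vitamin B12, and were taken 4 weeks after bilateral injection of adeno-associated virus (AAV) into its dorsomedial part at 0.1 µL per min for 5 min. The 4 control samples received pAAV.1-CAG-GFP, in which the ubiquitous CAG promoter drives green fluorescent protein (GFP). The 4 overexpression samples received pAAV-CAG-GFP-P2A-Ttr-WPRE.bgH, in which the same promoter drives GFP and Ttr as one transcript, and the 4 knockdown samples received a pAAV vector with the cassette U6-Ttr-shRNA-2 followed by CAG-GFP-WPRE3, in which the U6 promoter drives a short hairpin RNA against Ttr beside GFP. The supplier of the control vector differed from that of the Ttr vectors, and the WPRE element is named in the Ttr vectors and not in the control vector, so source and element cannot be told apart from the groups. The labels do not say that each sample is its own mouse, so a p-value speaks only to sample-to-sample spread, which may be technical. CAG is active in many cell types and the tissue was not sorted, so in these bulk samples fewer cells of a type and less RNA per cell cannot be told apart.

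The ribosome has a small subunit, which reads the mRNA, and a large subunit, which joins the amino acids, and each protein is built into its subunit in equal copy number, apart from the stalk. P0, P1 and P2 (Rplp0, Rplp1 and Rplp2) form the stalk of the large subunit that recruits elongation factors. Ribosomal protein mRNAs carry a 5′ terminal oligopyrimidine (TOP) tract, a C at the cap followed by pyrimidines, through which the growth kinase mTOR and the binding protein LARP1 control their translation together. Their genes have left many retrotransposed copies, processed pseudogenes without introns, across mammalian genomes. In neurons ribosomal protein mRNAs are also found in dendrites and axons.

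Start sites of 63 of the 87 genes were found in the RefSeq promoter table (GRCm38.p6, from 250 bases before to 50 bases after each start). The following 30-base windows, 5′ to 3′, were chosen for a long tract of the TOP form at the annotated start base, so they are not typical of the 63. Capitals mark the pyrimidine tract that begins at that base. Rpl15 and Rpl35 belong to the large subunit and Rps10, Rps18 and Rps6 to the small subunit.
Rpl15, chr14:18270972-18271001, minus strand: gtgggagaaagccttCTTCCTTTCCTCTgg
Rpl35, chr2:39005117-39005146, minus strand: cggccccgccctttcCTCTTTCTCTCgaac
Rps10, chr17:27635230-27635259, minus strand: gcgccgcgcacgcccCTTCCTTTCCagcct
Rps18, chr17:33955651-33955680, minus strand: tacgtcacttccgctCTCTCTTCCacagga
Rps6, chr4:86857353-86857382, minus strand: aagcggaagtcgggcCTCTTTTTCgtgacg
The tracts run for 13, 11, 10, 9 and 9 bases in that order. A C followed by at least 4 pyrimidines began at the annotated start base in 14 of the 63 genes (22.2%), against 3.01% of 27025 genes in the table. With the start of such a tract allowed within 5 bases of the annotated base, the shares were 47.6% and 21.2%.

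A second feature was the motif CCGGAAG, which the factor GABP recognises, searched on both strands of each promoter window together with YY1 (AAGATGGC), SP1 (GGGCGG) and the TATA box (TATAAA); overlapping matches of different motifs were each counted. The 27-base windows below show it on the strand of the gene for 3 genes that hold it, taken for their high mean TPM. Capitals mark the motif.
Rpl41, chr10:128549208-128549234, minus strand: agtaaggcagCCGGAAGtcgctgtctc
Rps21, chr2:180257343-180257369, plus strand: gtaccctgacCCGGAAGcacttaccga
Rpl26, chr11:68901560-68901586, plus strand: acttacagaaCCGGAAGtcgcgtgtag
The motif begins 56 bases before the start in Rpl41 and 26 bases before it in Rps21, and at position 5 after it in Rpl26. CCGGAAG was held by 26 of the 63 promoters (41.3%) and by 9.93% of all genes. AAGATGGC was held by 9.52% against 3.19%, GGGCGG by 60.3% against 38.2%, and TATAAA by 12.7% against 15.7%. A match is a run of letters and not a measured binding site.

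Library totals ran from 19879629 to 37166146 counts. Ttr checked the labels: it had 14 to 200 counts in the control libraries, 2121 to 20940 in the overexpression libraries and 3 to 47 in the knockdown libraries, so the control and knockdown ranges overlap and the overexpression range does not meet either. Mitochondrially encoded genes took 4.59 to 7.17% of the counts. Excitatory neuron markers summed to 5606 to 7661 CPM (counts scaled to one library size), and no gene of the 12 marker lists was at 0. The 18 mural and meningeal markers (17 of them with a positive log2 difference in overexpression against control) summed to 235 to 309 CPM in control, 336 to 478 CPM in overexpression and 268 to 317 CPM in knockdown libraries. The 14 lymphocyte markers summed to 19.2 to 32.4, 21.5 to 99.6 and 18.98 to 28.0 CPM in the same order. The lists that lay wholly on one side of 0 against control were those of oligodendrocytes (10 of 10 negative in both comparisons, median log2 differences -0.29 in overexpression and -0.48 in knockdown), blood (5 of 5 negative, -0.41 and -0.081), endothelium (9 of 9 positive, 0.23 and 0.23) and microglia (10 of 10 positive, 0.21 and 0.28), and, in overexpression, those of choroid plexus (6 of 6 positive, 0.78) and striatal projection neurons (8 of 8 positive, 0.25). Oligodendrocyte markers summed to 3766 to 9251 CPM in control, 3723 to 5470.1 CPM in overexpression and 2305 to 5387 CPM in knockdown libraries, so the groups overlap. No gene of these lists passed the test, and the part of these cells in the values below was not tested.

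On the deposited TPM scale (transcript abundance, which divides counts by gene length), the ribosomal protein genes were above the typical gene, with a median of 44.6 TPM over the 87 (43.5 for the large and 49.1 for the small subunit) beside 14.3 over all genes tested. These are levels of each gene's own row, and rows of copies are given further on. They were far from equal among themselves: 21 had a mean above 100 TPM and 20 a mean below 10 TPM. The highest was Rplp1, a stalk protein, at 943 ± 96.7 TPM (SD, n = 12). Rps15, a protein of the small subunit's head, followed with 797 ± 68.2 TPM, then Rpl41, a very short peptide at the interface between the subunits, with 635 ± 63.9 TPM, and Rpl4, a core protein lining the exit tunnel, with 633 ± 20.5 TPM. Rpl41 and Rpl4 differed by less than their spread, while Rplp1 lay more than 1 SD above Rps15 and Rps15 more than 1 SD above Rpl41.

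In control libraries Rplp1 stood at 932, 944, 811 and 1037 TPM, in overexpression libraries at 886, 775, 934 and 1009 TPM and in knockdown libraries at 1067, 877, 954 and 1088 TPM. The lowest value in each of the first pair of groups belonged to control replicate 3 and overexpression replicate 2, and the 3 groups overlap. Rpl4 was steadier, at 608, 645, 592 and 646 TPM in control, 650.2, 605, 648 and 646 TPM in overexpression and 653, 644, 627 and 633 TPM in knockdown libraries, and its coefficient of variation of 3.24% over 12 libraries was the lowest of the 87, whose median was 9.62%. Rps15 had 772, 829, 691 and 855 TPM in control, 771, 679, 784 and 823 TPM in overexpression and 932, 792, 829 and 809 TPM in knockdown libraries, lowest in overexpression replicate 2 and highest in knockdown replicate 1. Rpl41 had 650.5, 681, 543 and 744 TPM in control, 608, 549, 590.2 and 677 TPM in overexpression and 712, 588, 606 and 674 TPM in knockdown libraries. Control replicates 3 and 4 held its lowest and highest value, and in all 4 of these genes the groups overlap.

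The 4 lowest levels belonged to Rpl39l, Rpl3l, Rpl24 and Rpl35. Rpl39l, a form of Rpl39 known from the testis, had 0 counts in 5 libraries and 10 in control replicate 3, with a mean of 0.179 TPM. Rpl3l, the form of Rpl3 of striated muscle, had 0.534 ± 0.198 TPM (SD, n = 12), with 0.301, 0.227, 0.253 and 0.641 TPM in control, 0.648, 0.506, 0.670 and 0.850 TPM in overexpression and 0.442, 0.591, 0.755 and 0.531 TPM in knockdown libraries. Control replicates 1 to 3 were its lowest libraries and control replicate 4 lay among the others. Rpl24, which forms a bridge to the small subunit, had 1.84, 1.54, 1.13 and 0.978 TPM in control, 0.839, 1.26, 1.23 and 2.07 TPM in overexpression and 2.16, 0.902, 1.32 and 1.44 TPM in knockdown libraries. Rpl35, a protein near the tunnel exit, had 1.42, 1.43, 1.76 and 1.51 TPM in control, 2.05, 1.30, 2.23 and 2.59 TPM in overexpression and 2.05, 1.39, 2.58 and 1.41 TPM in knockdown libraries. In both the groups overlap, and both are core parts of the ribosome whose own rows held few counts, 116 for Rpl24 and 220 for Rpl35. Rpl35 had 465 more on close copies.

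The stalk genes differed in level. Rplp0 had 142, 146, 134 and 150.4 TPM in control, 145, 130.3, 149 and 167 in overexpression and 159, 152, 150.3 and 152 in knockdown libraries. Rplp2 had 44.4, 48.2, 37.4 and 60.2 TPM in control, 42.0, 38.9, 44.6 and 48.9 in overexpression and 46.1, 39.0, 42.1 and 48.6 in knockdown libraries. In both genes the 3 groups overlap, and the highest libraries were overexpression replicate 4 for Rplp0 and control replicate 4 for Rplp2. None of the stalk genes passed the test, the largest log2 difference being -0.20 for Rplp1 in overexpression against knockdown (adjusted p = 0.974, edgeR quasi-likelihood test).

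Several ribosomal proteins have a second gene, and the pairs were unequal here. Rpl22, an RNA-binding protein of the large subunit, had 104, 108, 98.0 and 105 TPM in control, 106, 101, 105 and 114 TPM in overexpression and 106, 109, 109.9 and 105 TPM in knockdown libraries. Its paralog Rpl22l1, which can take its place in the ribosome, had 73.8, 72.4, 70.7 and 57.1 TPM in control, 73.8, 73.3, 83.3 and 84.5 TPM in overexpression and 63.4, 68.1, 78.0 and 74.0 TPM in knockdown libraries. On their own rows Rpl22 was above Rpl22l1 in all 12 libraries. Rpl22l1 had 5126 counts on its own row and 11387 on its pseudogene copy Gm15421. Rpl22 had no copy by the rule given below. Whether the order holds with the copy was not tested. In both genes the groups overlap, control replicate 4 being the lowest for Rpl22l1 and control replicate 3 for Rpl22. Rpl7, a protein of the large subunit, had 101, 107, 96.9 and 115 TPM in control, 105, 101, 108 and 115 TPM in overexpression and 109, 108, 109.8 and 102 TPM in knockdown libraries. Rpl7l1 had 30.7, 32.1, 30.5 and 31.1 TPM in control, 32.2, 33.1, 28.9 and 32.4 TPM in overexpression and 33.5, 31.7, 35.2 and 31.04 TPM in knockdown libraries, well under Rpl7 in every library, and the groups overlap in both genes.

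Rpl3, a core protein of the large subunit near the peptidyl transferase centre, had 89.4, 96.0, 78.1 and 106 TPM in control, 101, 82.5, 88.7 and 93.3 TPM in overexpression and 99.4, 83.9, 95.2 and 85.4 TPM in knockdown libraries. Rpl39, a short protein in the exit tunnel, had 65.1, 65.8, 60.7 and 65.9 TPM in control, 63.9, 59.1, 76.6 and 69.0 TPM in overexpression and 63.6, 68.2, 63.0 and 71.4 TPM in knockdown libraries. Both stood far above Rpl3l and Rpl39l in every library, and the groups overlap. The order was the other way round in Rps27 and Rps27l: Rps27 had 12.6, 9.99, 7.68 and 13.5 TPM in control, 7.78, 8.996, 10.2 and 9.53 TPM in overexpression and 12.4, 11.8, 7.77 and 9.92 TPM in knockdown libraries, and Rps27l, a gene induced by p53, had 21.1, 22.3, 23.5 and 26.3 TPM in control, 19.6, 19.9, 27.3 and 27.5 TPM in overexpression and 22.6, 22.5, 21.8 and 23.1 TPM in knockdown libraries. On these own rows the l-form was the higher in all 12 libraries, and within each gene the groups overlap. The Rps27 row leaves out Rps27rt, a retrogene of Rps27 with a mean of 225 TPM, and whether the order holds with it was not tested.

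Rps4x, the X-linked gene of the protein S4, had 196, 196, 191 and 192 TPM in control, 212, 185, 212 and 228 TPM in overexpression and 199.9, 207, 207 and 193 TPM in knockdown libraries. Rps4l, a transcribed pseudogene, had 36.1, 23.4, 30.0 and 39.6 TPM in control, 32.9, 28.2, 31.2 and 39.2 TPM in overexpression and 37.8, 30.8, 35.6 and 38.1 TPM in knockdown libraries, below Rps4x in every library. Rps3a1, a small-subunit protein, had 90.5, 88.1, 82.5 and 89.2 TPM in control, 94.0, 82.1, 96.8 and 88.9 TPM in overexpression and 88.3, 94.4, 91.3 and 91.7 TPM in knockdown libraries. In these 3 genes the groups overlap, with overexpression replicate 2 the lowest library for Rps4x and Rps3a1.

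Genes for ribosomal proteins that the symbol rule leaves out were also read. Rack1, a scaffold on the small subunit, stood at 288 ± 15.3 TPM (SD, n = 12), while Fau, which encodes its ribosomal protein joined to a ubiquitin-like part, stood at 5.79 ± 0.60 TPM. Rps27rt, a retrogene of Rps27, had 225 ± 30.4 TPM, above the 10.2 TPM of Rps27 itself. Rpl37rt, named after its values were seen, had 546 ± 44.5 TPM. Over the 5 listed genes, leaving out Rpl37rt, the median log2 differences were 0.0025 in overexpression against control, 0.0084 in knockdown against control and -0.051 in overexpression against knockdown.

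Pseudogene rows close in sequence to these genes also held many counts. The 5 annotated pseudogenes among the 87, such as Rpl6l (4930 counts) and Rps3a2 (4933 counts), were kept as members and could not be called copies. Any other annotated pseudogene was a close copy when at least 50% of its 31-base words occur in the transcripts of one ribosomal protein gene. There were 295 such rows, and they held 992029 counts beside 1119743 on the 87 genes, or 47.0% of the sum, from 46.4 to 47.4% in single libraries. Most (191) carry symbols with no hint of the parent, such as Gm14303. Of the 87 genes, 69 had a close copy, 40 had fewer counts on their own row than on copies, and in 15 the own row held under 10% of the sum. The aligner and its treatment of reads that match several places are not stated in the sources used here, and which of the rows the reads came from was not tested.

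The stretches below are 40 coding bases each from GENCODE M21 transcripts (GRCm38), and each spans a junction of adjacent exons of the gene. For each gene the coding junction with the fewest mismatches to the copy was chosen. The copy, which has no intron there, holds the same letters with 0 mismatches. Over the whole copy, the share of its 31-base words found in the gene was lower in some, such as 68.4% for Rps10-ps1 and 83.1% for Gm8129. It was 100% for Gm14303 and Rps16-ps2. Capitals mark the downstream exon.
Rps29, chromosome 12, exons 1 and 2, and Gm14303, chr2:172509521-172509691: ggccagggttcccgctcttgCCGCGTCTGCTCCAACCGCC
Rpl24, chromosome 16, exons 2 and 3, and Gm9385, chr9:116040593-116041064: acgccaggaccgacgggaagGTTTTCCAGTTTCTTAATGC
Rps16, chromosome 7, exons 1 and 2, and Rps16-ps2, chr5:129128077-129128517: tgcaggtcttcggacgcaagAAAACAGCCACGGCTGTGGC
Rpl38, chromosome 11, exons 3 and 4, and Gm8129, chr6:52346730-52346942: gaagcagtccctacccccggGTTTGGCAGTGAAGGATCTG
Rps10, chromosome 17, exons 1 and 2, and Rps10-ps1, chr3:95622278-95622772: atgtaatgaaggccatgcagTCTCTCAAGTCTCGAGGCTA
A read of these bases therefore matches the spliced mRNA and the copy alike. Rps29, a small zinc-binding protein of the small subunit on chromosome 12, had 114 counts on its own row and its copy Gm14303 had 50951. Rpl24 had 116 and its copy Gm9385 on chromosome 9 had 21597. Rps16, a protein of the small subunit's head, had 309 and Rps16-ps2 on chromosome 5 had 23679, Rpl38 had 340 and its copies 20939, and Rps10 had 582, which was 2.11% of its sum with copies.

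The own row was also a minor share of some larger sums. For Rpl13a, known also for a role in silencing inflammatory mRNAs, it held 6.87% of the 81513 counts summed with Gm11478. Only 58.2% of the 31-base words of Gm11478 occur in Rpl13a, so many of its bases differ from those of the gene. The own row held 10.7% of 52532 for Rpl23, which binds the p53 regulator MDM2, and 37.2% of 68354 for Rpl14. By contrast Rpl4, Rps3, Rplp1, Rplp2, Rps21 and Rpl32 had no close copy. For Rpl32 this follows partly from the rule, since Rpl32l, with 2031 counts, is a member and could not be called a copy. Rps15 had no close copy by this rule either. A row named after it, Rps15-ps2, which did not meet the rule, held 18178 counts beside 57484 on the Rps15 row. A gene without a close copy can still share letters with other transcripts. Of the 50-base words of Rplp1, 60% occur in transcripts of other genes, against 16.5% for Rpl4 and 2.82% for Rps3. Over 77 protein-coding members that are no paralogs, the counts on the gene's own row ran from 114 to 123556, a 1084-fold span with a median of 6015. Summed with the copies, they ran from 469 to 123556, a 263-fold span with a median of 21617, and the number under 1000 counts went from 16 to 3. The lowest, Rps27, leaves out the retrogene Rps27rt with 10620 counts. Rpl37, at 4029, likewise leaves out Rpl37rt with 46980 counts.

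**Figure D1:**
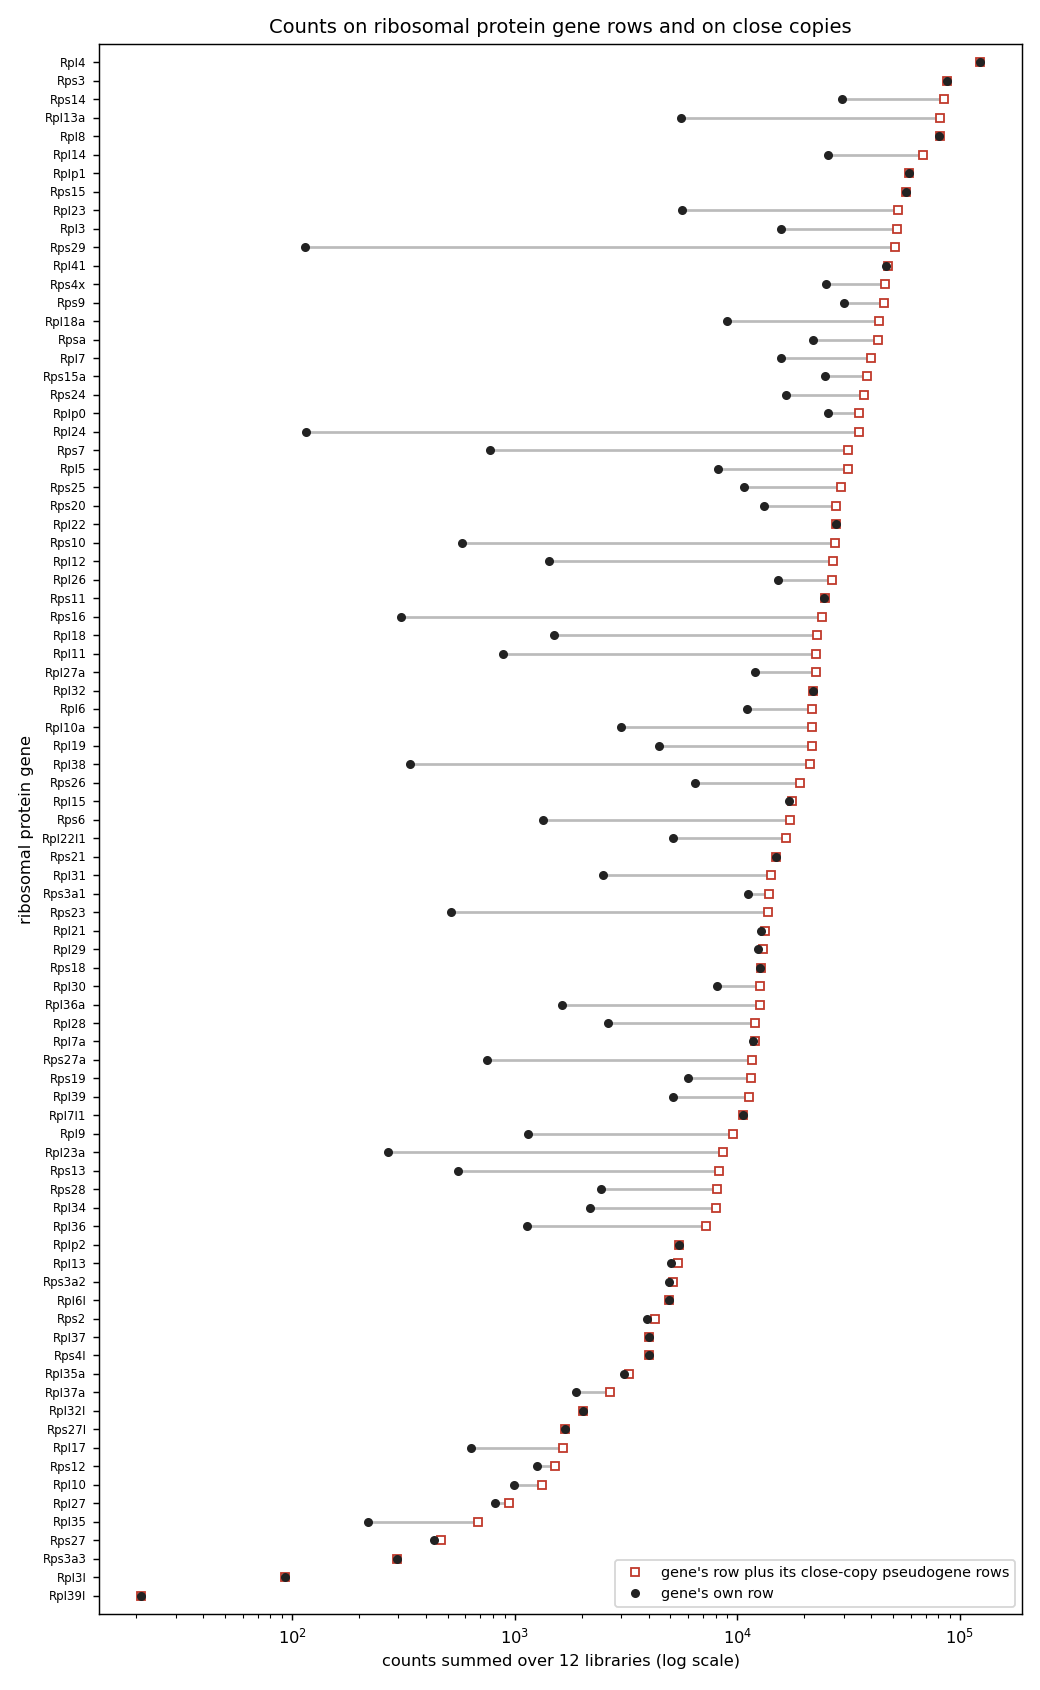
Counts over the 12 libraries for 84 of the 87 genes on a log axis, on the gene's own row (filled circles) and summed with its close-copy pseudogene rows (open squares). Long grey lines such as those of Rps29 (114 to 51076) and Rpl24 (116 to 35203) mark genes whose own row held few counts beside the rows of their copies, while Rpl4 and Rps3 have no line.

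The parent rows were also read for letters they share with any other annotated transcript. A median of 38.3% of a gene's 50-base words occurred elsewhere, from 0 in 3 genes to 95.1% in Rpl35, and 31 genes shared at least 50%. The median level was 44.6 TPM in those 31 and 44.8 TPM in the other 56. Across the 87 genes, log2 TPM and the shared percentage had a Pearson r of -0.13, a description over genes that share libraries and are not independent. In addition 30 of the genes hold 58 small nucleolar or small Cajal body RNA genes between their start and end on the same strand. Whether counting used the strand is not stated in the sources used here.

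The first comparison sets the Ttr overexpression virus against the control virus. None of the 85 genes passed the edgeR quasi-likelihood test at an adjusted p below 0.05 in overexpression against control, where 0.00547% of the 18289 genes tested did (1 gene, Ttr). At an unadjusted p below 0.05, 0 were higher and 6 (7.06%) were lower, beside 4.58% higher and 1.68% lower over all genes. That number of 6 rested on single libraries: it was 2, 12 and 1 when control replicates 2, 3 and 4 were left out in turn, and 2 when overexpression replicate 1 or 3 was. It was 3 with library totals as the only scaling, with DESeq2 and with limma-voom, and 1 with copies summed in. With a covariate for the mural and meningeal markers it was 0. That covariate, their mean log2 deviation, was 0.29 to 1.02 in overexpression and -0.94 to 0.0042 in control libraries. It is thus confounded with the group, and a fall to 0 cannot be told apart from lost power. The median log2 difference was -0.041 over the 85, with 65 negative (76.5%), beside 0.0038 and 48.6% negative over all genes. The large subunit (median -0.040, 39 of 50 negative) and the small subunit (median -0.043, 26 of 35 negative) had nearly equal medians. For 69 of the 85 the 95% interval lay within 0.5 on the log2 scale on both sides of 0. In 0 genes was every overexpression library above every control library, and in 2 genes below, beside 1.88% and 0.837% of all genes.

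Among the genes with the smallest p-values were Rps16, Rpl28 and Rpl38, each with fewer counts on its own row than on the rows of its copies. Rps16 (ENSMUSG00000037563, chromosome 7, 28350652 to 28353155) had 1.16, 1.49, 1.12 and 1.08 CPM in control libraries and 0.854, 0.856, 1.00 and 0.755 CPM in overexpression libraries, and the groups do not overlap. By the edgeR quasi-likelihood test, used for every gene below, its log2 difference was -0.47 ± 0.17 (SE; adjusted p = 0.707). Summed with its copies it was -0.20 ± 0.11 (SE; adjusted p = 0.837), and the groups then overlap, at 77.5, 87.5, 64.5 and 95.7 CPM against 67.4, 68.5, 68.9 and 77.8 CPM. The own row rests on 15 to 41 counts a library.

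Rpl28 (ENSMUSG00000030432, chromosome 7, 4792874 to 4795066), a protein of the large subunit, had 8.95, 8.92, 7.83 and 9.11 CPM in control and 7.57, 7.67, 6.77 and 7.59 CPM in overexpression libraries. Replicate 3 was the lowest library of both groups, and the groups do not overlap. It gave a log2 difference of -0.23 ± 0.087 (SE; adjusted p = 0.736), and -0.072 ± 0.069 (SE; adjusted p = 0.897) with copies.

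Rpl38 (ENSMUSG00000057322, chromosome 11, 114668524 to 114672331), a small protein whose loss changes the mouse axial skeleton, had 1.08, 0.934, 1.36 and 1.60 CPM in control and 0.732, 0.948, 0.752 and 1.07 CPM in overexpression libraries. Control replicate 2 lies inside the overexpression range, so the groups overlap. The log2 difference was -0.52 ± 0.22 (SE; adjusted p = 0.79), and -0.15 ± 0.10 (SE; adjusted p = 0.858) with copies. Over all 85 genes, summing with copies left the median at -0.036 with 71 negative, and the largest difference in size went from 0.52 to 0.34.

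The second comparison sets the Ttr knockdown virus against the control virus. In knockdown against control 0 of 85 passed at an adjusted p below 0.05, where 0.00547% of all genes did (1 gene, Nr4a1, an activity-induced nuclear receptor). At an unadjusted p below 0.05, 4 (4.71%) were higher and 2 (2.35%) lower, beside 3.85% and 1.83% over all genes, so both shares were near the background. The number in both directions, 6, was 4 to 9 with a library left out. The median log2 difference was 0.029, with 51 of 85 positive, beside 0.0047 over all genes, and for 73 the 95% interval lay within 0.5 on both sides of 0. In 3 genes (3.53%) every knockdown library was above every control library and in 1 gene (1.18%) below, beside 2.78% and 1.33% of all genes. This comparison and the one before it share the control libraries.

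Rpl6l (ENSMUSG00000091086, chromosome 10, 111125851 to 111126721), annotated as a processed pseudogene and named after Rpl6, had the smallest p. It had 13.8, 14.9, 13.9 and 14.5 CPM in control and 17.6, 20.4, 15.003 and 18.1 CPM in knockdown libraries. All 4 knockdown libraries were above all control libraries, by little in knockdown replicate 3. This is a log2 difference of 0.31 ± 0.083 (SE; adjusted p = 0.522). Rpl6 itself, a protein of the large subunit, had 33.9, 36.5, 30.9 and 36.5 CPM in control and 38.7, 35.1, 35.0 and 36.1 CPM in knockdown libraries, which overlap, and a log2 difference of 0.072 ± 0.068 (SE; adjusted p = 0.947).

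Rps16 had 0.825, 0.870, 0.713 and 0.765 CPM in knockdown libraries, all below the control libraries given above, and a log2 difference of -0.61 ± 0.17 (SE; adjusted p = 0.573). With its copies it was -0.13 ± 0.11 (SE; adjusted p = 0.937) and the groups overlap, at 79.3, 67.5, 70.2 and 80.7 CPM in knockdown libraries. Rps27a (ENSMUSG00000020460, chromosome 11, 29545846 to 29548109), made as a fusion of ubiquitin and a small-subunit protein, had 2.69, 2.89, 2.59 and 2.21 CPM in control and 1.55, 2.29, 1.88 and 1.53 CPM in knockdown libraries. Control replicate 4 lay below knockdown replicate 2, so the groups overlap. The log2 difference was -0.51 ± 0.17 (SE; adjusted p = 0.727), and with its copies, which held 10852 counts beside 749, it was 0.013 ± 0.085 (SE; adjusted p = 0.995).

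Rpl21 (ENSMUSG00000041453, chromosome 5, 146832890 to 146837032), a protein of the large subunit whose own row held 96.7% of its sum with copies, had 38.2, 38.5, 39.0 and 38.7 CPM in control and 45.6, 44.1, 39.3 and 44.1 CPM in knockdown libraries. The control libraries lie close together and the knockdown libraries above them without overlap, knockdown replicate 3 by little. The log2 difference was 0.16 ± 0.058 (SE; adjusted p = 0.808). Over all 85 genes summed with copies, the median was 0.020 with 55 positive, and the largest difference in size went from 0.67 to 0.31. The 0.67 was that of Rps29, named after its values were seen, whose own row rests on 5 to 18 counts a library and whose difference with copies was -0.0055.

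**Figure D2:**
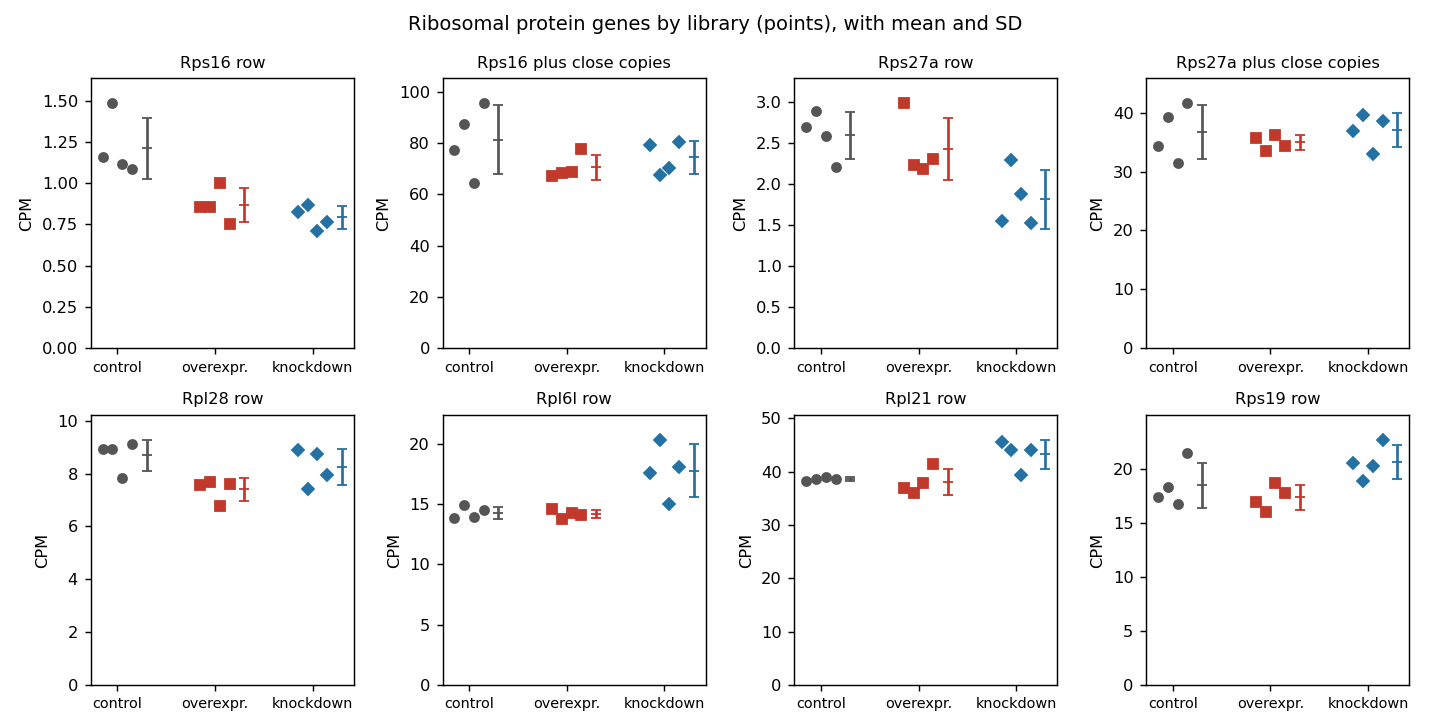
CPM of 6 of the named genes in every library, with the mean and SD beside the points of each group (n = 4) and the axes starting at 0. The own rows of Rps16 and Rps27a are set beside their sums with close copies, where the separation between control and the other groups seen on the Rps16 row is gone and Rps27a lies near 36.7 CPM in control and 37.03 CPM in knockdown libraries.

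Setting the overexpression libraries against the knockdown libraries compares no control library, although the control libraries enter the shared fit through the expression filter and the estimate of spread. Again 0 of 85 genes passed, where 0.00547% of all genes did (1 gene, Ttr). At an unadjusted p below 0.05, 1 gene (1.18%) was higher in overexpression and 10 (11.8%) were lower, beside 2.78% higher and 2.32% lower over all genes. The number in both directions, 11, was 4 without knockdown replicate 4, 5 without knockdown replicate 1 and 7 without overexpression replicate 1. It rose to 13 without overexpression replicate 4 or knockdown replicate 2, and to 12 without knockdown replicate 3. The number was 7 with copies summed in and on both log2 TPM scales, and 0 with the mural and meningeal covariate. That covariate was -0.36 to 0.18 in knockdown libraries, below every overexpression library, so it is confounded with the group here too. The median log2 difference was -0.068, with 59 of 85 negative, beside 0.00020 over all genes, and -0.081 with 74 negative when copies were summed in. In 5 genes (5.88%) every overexpression library was below every knockdown library and in 0 genes above, beside 1.14% and 1.23% of all genes.

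Rpl6l had 14.6, 13.8, 14.3 and 14.1 CPM in overexpression libraries, all below the knockdown values above, and a log2 difference of -0.32 ± 0.083 (SE; adjusted p = 0.855). Rpl21 had 36.9, 36.0, 37.9 and 41.4 CPM in overexpression libraries, of which replicate 4 reaches into the knockdown range, and a log2 difference of -0.19 ± 0.058 (SE; adjusted p = 0.95).

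Rps19 (ENSMUSG00000040952, chromosome 7, 24884371 to 24889806), the gene most often mutated in Diamond-Blackfan anaemia in humans, had 16.9, 16.1, 18.7 and 17.8 CPM in overexpression and 20.6, 18.9, 20.2 and 22.7 CPM in knockdown libraries. Overexpression replicate 3, the highest of its group, lay just under knockdown replicate 2, so the groups do not overlap. The log2 difference was -0.25 ± 0.086 (SE; adjusted p = 0.967), and -0.18 ± 0.094 (SE; adjusted p = 0.975) with copies.

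**Figure D3:**
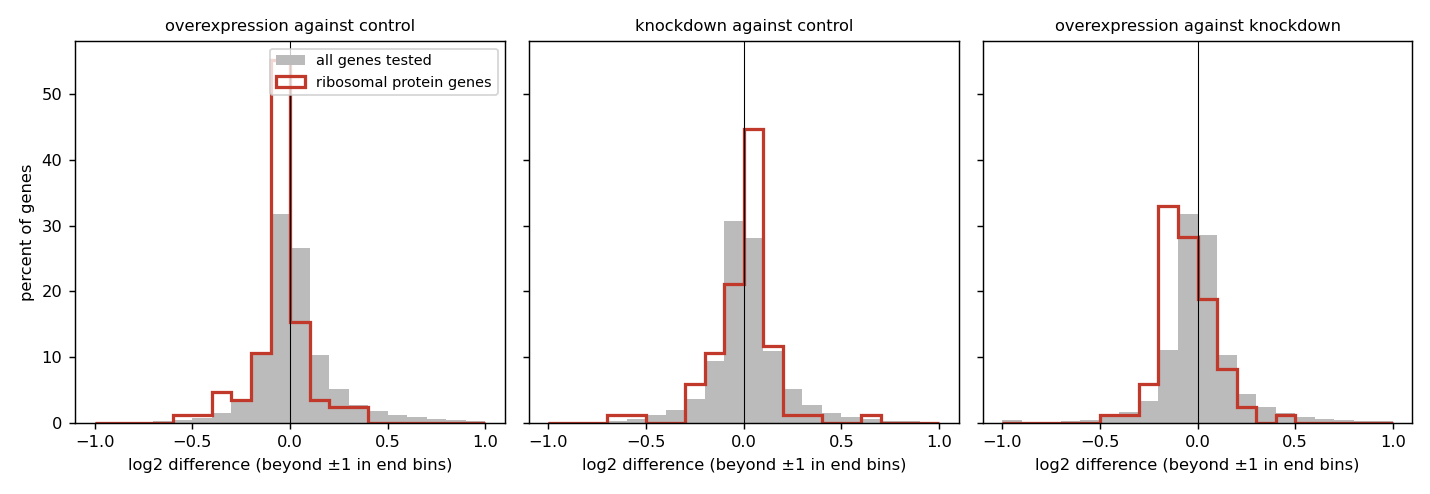
Share of genes in bins of 0.1 on the log2 scale of difference, for the ribosomal protein genes (red outline, 85 genes) and all 18289 genes tested (grey), in the 3 comparisons, with values beyond 1 in the end bins. The red outline leans below 0 in overexpression against control (median -0.041) and against knockdown (median -0.068) and slightly above 0 in knockdown against control (median 0.029).

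The small lean of the medians moved with single libraries as well as with groups. Each library's median deviation of the 85 genes from their 12-library means (log2 CPM) was 0.0080, 0.054, -0.13 and 0.075 in control, -0.063, -0.12, -0.0083 and 0.033 in overexpression and 0.066, -0.023, -0.019 and 0.097 in knockdown libraries. Control replicate 3 and overexpression replicate 2 stood lowest, with 18 and 7 of 85 genes above their own 12-library median, and knockdown replicate 4 stood highest with 69. The groups overlap. The summed level was 9405 ± 757 TPM in control, 9338 ± 625 TPM in overexpression and 9651 ± 351 TPM in knockdown libraries (SD, n = 4), so the group means lie within 1 SD of each other.

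These deviations tended to be lower in larger libraries, though not in strict order: overexpression replicate 4 lay below the larger control replicates 2 and 4, and overexpression replicate 3 and knockdown replicate 3 lay above the smaller knockdown replicate 2. The 6 libraries with the fewest counts (19879629 to 24362582) had medians from 0.0080 to 0.097, and the 6 with the most (25136816 to 37166146) had medians from -0.13 to -0.0083. The median over all genes stayed near 0 in every library, which the scaling of the libraries to their typical genes largely sets in advance. With the log2 library total as a covariate, added after seeing the data, the median differences were -0.015, 0.010 and -0.017 in the order above, and 0 ribosomal protein genes passed. Single libraries also moved the medians. In overexpression against control the median of -0.041 became -0.023, -0.084 and -0.013 when control replicates 2, 3 and 4 were left out in turn, and -0.0063 and -0.075 when overexpression replicates 2 and 4 were. In knockdown against control the median of 0.029 was -0.016 without control replicate 3, 0.044 without control replicate 4 or knockdown replicate 2, and 0.0068 without knockdown replicate 4. In overexpression against knockdown the median of -0.068 was -0.041 without overexpression replicate 2 and -0.046 without knockdown replicate 4. It was -0.096 without overexpression replicate 4 and -0.087 without knockdown replicate 2. Without control replicate 3 and overexpression replicate 2 together the 3 medians were -0.051, -0.019 and -0.036, and 0 ribosomal protein genes passed. With a covariate for the mean level of mural and meningeal markers, which is confounded with overexpression, they were 0.054, 0.057 and -0.027.

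**Figure D4:**
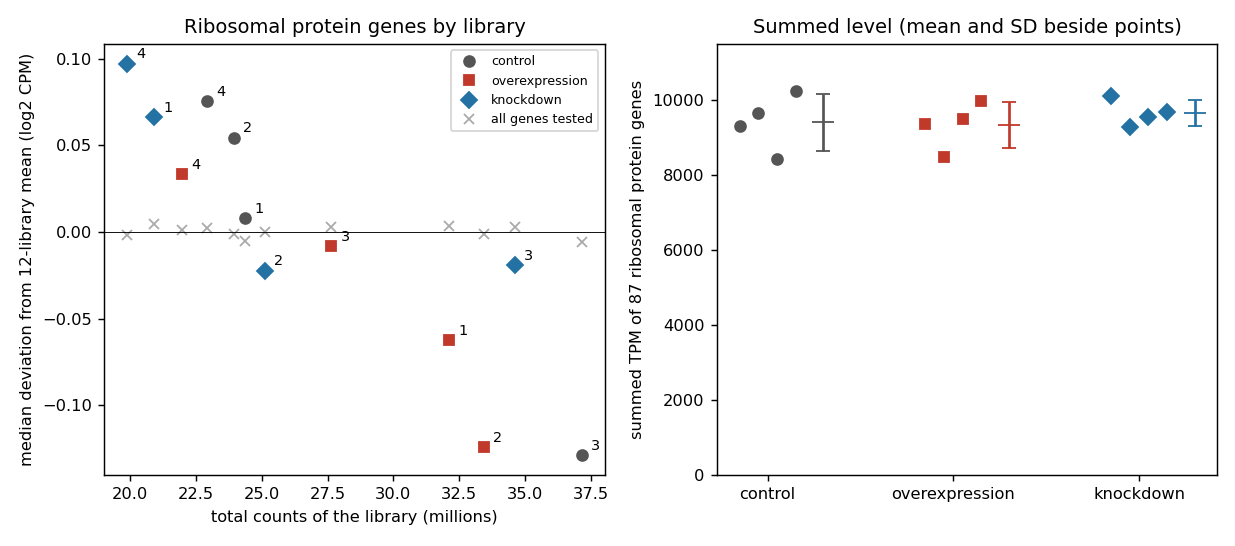
Left, the median deviation of the 85 tested ribosomal protein genes from their 12-library means (log2 CPM) against the total counts of the library, with replicate numbers and the median over all genes tested as crosses. Right, the summed TPM of the 87 genes in each library with the mean and SD of each group (n = 4). The points run from 0.097 in the library with the fewest counts to -0.13 in the library with the most, and the 3 groups overlap on the right. The crosses stay near 0, where the scaling of the libraries largely sets them.

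Genes that work with the cytosolic ribosome were read from lists, and in each list 0 genes passed in any comparison. The mitochondrial ribosomal proteins, which build the separate ribosome inside mitochondria, had a median log2 difference of -0.044 in overexpression against control (58 of 77 negative), 0.0049 in knockdown against control and -0.046 in overexpression against knockdown (61 of 77 negative). Mrps21 had the smallest p in overexpression against control, at -0.21 ± 0.10 (SE; adjusted p = 0.797), and Mrpl41 in overexpression against knockdown, at -0.15 ± 0.054 (SE; adjusted p = 0.967). Other mRNAs with TOP tracts, such as translation factors, had medians of -0.015, 0.0068 and -0.021 over 24 genes in the same order. Among them Tpt1, the translationally controlled tumour protein, had -0.33 ± 0.11 (SE; adjusted p = 0.684) in overexpression against control.

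Ribosome assembly factors had medians of -0.032, -0.018 and 0.00089 over 36 genes. Nob1, the endonuclease that trims the small-subunit rRNA, had 20.4 ± 0.96 CPM in overexpression and 23.4 ± 0.92 CPM in knockdown libraries (SD, n = 4) and a log2 difference of -0.20 ± 0.059 (SE; adjusted p = 0.855). Fbl, the methyltransferase of box C/D small nucleolar particles, had -0.40 ± 0.16 (SE; adjusted p = 0.834) in knockdown against control. The transcription and TOP regulators had medians of -0.0065, -0.0082 and -0.014 over 23 genes, with Gabpa, the DNA-binding subunit of GABP, at 0.17 ± 0.080 (SE; adjusted p = 0.797) in overexpression against control. Genes of ribosome stress and quality control had medians of 0.028, 0.012 and 0.0095 over 11 of 13 listed genes, with the cell-cycle inhibitor Cdkn1a at -0.39 ± 0.15 (SE; adjusted p = 0.967) in overexpression against knockdown.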

How the data were processed

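The members and gene lists were chosen with earlier results of these data known. The authors deposited counts per gene, TPM (length-scaled abundance) and variance-stabilised log2 values for the 12 libraries; per the labels' protocols, poly(A) RNA selected out of 500 ng was turned into strand-marked libraries whose adaptors carry unique molecular identifiers. Per the submitters' processing notes, bcl2fastq 2.20.0.422, UMI-tools, featureCounts, DESeq2 and the build GRCm38 (mm10) were used; aligner, annotation release, strand setting and handling of multiply matching reads were not stated in the sources used here.

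Symbols were found for 55141 of 55401 gene identifiers, and the rest held 0.00474% of the counts. Counts were tested in R 4.3.3 with edgeR 4.0.16 (quasi-likelihood test, TMM factors, default filter by group, 3 group means over all 12 libraries), and p-values were adjusted by Benjamini-Hochberg across 18289 genes with a threshold of 0.05. CPM used the TMM factors. The steps were tested on simulated data. Close copies were annotated pseudogenes (GENCODE M21) with at least 50% of their 31-base words in the transcripts of one gene. Start sites came from RefSeq (GRCm38.p6). Genes were named by rule: the 4 members with the smallest p per comparison, the 4 highest and 4 lowest in TPM, the stalk genes, paralogs with partners, and the 2 smallest p per other list, of which some are given; a few genes this rule names are not reported here. Same-numbered libraries of different groups had correlations of deviations from -0.34 to 0.16 over 12 pairs, and no pair of libraries within a group agreed within sampling noise (chi-square per degree of freedom 5.38 to 28.3 over 18 pairs). Alternatives were further tools (DESeq2 1.42.0, limma 3.58.1, also on the deposited TPM and log2 values), scalings, filters, covariates, copies summed in, and each library left out. Total counts of 19879629 to 37166146 per library set the counting precision.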

Additional observations from a re-analysis of the deposited data

Results flagged for a closer look

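In 96 groups of 4 libraries, 28 genes being looked at, 5 values stood apart from the other 3 of their group by more than Dixon's critical value at 95%, and chance flags about 1 in 20 groups. Rpl28 gave 2 of them, at 7.835 CPM in control replicate 3 and 6.769 CPM in overexpression replicate 3, both below the rest of their group. Rpl22, the RNA-binding protein of the large subunit, stood at 91.23 CPM in knockdown replicate 4. Rps27a, the ubiquitin fusion, stood at 2.991 CPM in overexpression replicate 1, above the rest. Rpl39l stood at 0.273 CPM in control replicate 3, which is 10 counts, and the other 3 control libraries held 0 or 1.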

How the results depend on the processing

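In 30 alternatives to each comparison, 0 of the ribosomal protein genes passed, the smallest adjusted p being 0.279 in overexpression against control, 0.250 in knockdown against control and 0.324 in overexpression against knockdown. The median log2 difference ran from -0.084 to 0.054, from -0.019 to 0.057 and from -0.096 to -0.017 in that order, and its sign turned in 3, 2 and 0 alternatives. The first turned with log2(TPM + 1) and log2(TPM + 0.1), at 0.0092 and 0.0093, where the median of all genes moved to 0.046 and 0.051. It also turned, to 0.0544, with a covariate for the mural and meningeal score, which is confounded with overexpression. The cause was not tested. Rps27a in knockdown against control turned to 0.0128 when close copies were summed in, an alternative chosen after seeing the data, as were the library total as covariate and leaving out both low libraries.

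The count of all genes called was 1 in each comparison and moved as follows. For overexpression against control it was 20 with no low-count filter, 39 with DESeq2, 0 with limma-voom, with only the 2 groups compared, with the mural score and with the library total as covariate, 3 without both low libraries, and 0 to 4 with a replicate left out. For knockdown against control it was 22 with no filter, 43 with DESeq2, 0 on both TPM scales, 2 with only the groups compared, 0 with the replicate block, with the mural score and without both low libraries, and 0 to 10 with a replicate left out. For overexpression against knockdown it was 4 with DESeq2, 0 with limma-voom and with the mural score, 2 with the replicate block and without both low libraries, and 0 to 2 with a replicate left out. With the replicate block the median of the ribosomal protein genes was -0.040, 0.032 and -0.064. Correlations of same-numbered libraries ran from -0.34 to 0.16, and whether the replicate numbers pair the samples was not tested. Rows such as Rps29, with 5 to 18 counts a library, limit what can be seen of single genes.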
